A study of Mus musculus with 31 samples.

Results

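The vacuolar proton ATPase is the pump that acidifies lysosomes and endosomes, and its V1 sector is the part that lies in the cytosol. The 8 genes described here encode the V1 subunits A to H in the isoforms that most tissues use: Atp6v1a, Atp6v1b2, Atp6v1c1, Atp6v1d, Atp6v1e1, Atp6v1f, Atp6v1g1 and Atp6v1h. They were chosen by symbol through the annotation of the array, and where several probe sets measured a gene, the one brightest on average stands for it. All 8 passed the filter on dim genes, being brighter than the median probe-set value in 31 of 31 arrays, among 12890 genes tested of 18147 measured. Samples were left liver lobes from female mice, 8 to 10 weeks old, of the inbred strains WSB/EiJ, NZW/LacJ, SM/J and MA/MyJ. Each strain received PF-04287881, a candidate antibiotic, at 600 mg/kg by gavage on 7 days, or sterile water as vehicle, and tissue was collected 24 hours after the last dose. Every group held 4 animals except treated WSB/EiJ, with 3, because 1 animal had died of a gavage error. In the coding of the series, livers of treated MA/MyJ and NZW/LacJ mice had vacuolated Kupffer cells, the resident macrophages of the liver, and those of treated NZW/LacJ mice also had single cell necrosis. All 31 arrays read Alb, the albumin gene of hepatocytes, at 14.7 to 14.8 log2 units. No transgene or deletion was named for any group.

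In the working pump, V1 hydrolyses ATP and turns a rotor that drives protons through the membrane sector V0. Subunits A and B form the catalytic head, D and F the central stalk that turns, E and G the peripheral stalks that hold the head still, and C and H join the stalks to the membrane sector. V1 and V0 can come apart and rejoin, which switches the pump off and on. The pump also takes part in the signalling of nutrients from the lysosome to mTORC1 through the Ragulator and Rag proteins. In macrophages, acid lysosomes digest what the cells take up, and many basic drugs collect in such compartments.

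Many promoters of lysosomal genes, V-ATPase genes among them, hold a palindrome with the core CACGTG, known as the CLEAR element and bound by TFEB and related factors. RefSeq promoter sequence of build GRCm38.p6 was at hand for 4 of the 8 genes, Atp6v1a, Atp6v1d, Atp6v1e1 and Atp6v1f. All 4 are shown, and they were not chosen by result. Atp6v1d, Atp6v1e1 and Atp6v1f rose in the mean of the strains, and Atp6v1a, the catalytic subunit, did not pass there. Atp6v1g1, which also rose, was not among the sequences at hand. The 250 bases before each gene start are given 5′ to 3′ on the strand of the gene, with capitals marking TCACGTGA, the 8-base core, wherever it was found. Atp6v1a lies on the minus strand with its window at chr16:44139260-44139509, Atp6v1d on the minus strand at chr12:78861639-78861888, Atp6v1e1 on the minus strand at chr6:120822699-120822948, and Atp6v1f on the plus strand at chr6:29467533-29467782.
Atp6v1a: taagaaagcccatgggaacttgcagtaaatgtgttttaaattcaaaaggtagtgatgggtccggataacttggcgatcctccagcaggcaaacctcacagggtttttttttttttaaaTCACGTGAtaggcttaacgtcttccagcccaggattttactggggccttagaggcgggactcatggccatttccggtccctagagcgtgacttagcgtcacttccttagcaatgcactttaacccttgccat
Atp6v1d: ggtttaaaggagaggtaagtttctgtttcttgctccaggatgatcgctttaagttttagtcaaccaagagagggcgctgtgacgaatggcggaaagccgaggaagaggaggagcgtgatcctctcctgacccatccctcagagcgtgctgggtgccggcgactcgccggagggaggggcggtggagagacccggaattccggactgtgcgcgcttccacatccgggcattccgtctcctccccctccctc
Atp6v1e1: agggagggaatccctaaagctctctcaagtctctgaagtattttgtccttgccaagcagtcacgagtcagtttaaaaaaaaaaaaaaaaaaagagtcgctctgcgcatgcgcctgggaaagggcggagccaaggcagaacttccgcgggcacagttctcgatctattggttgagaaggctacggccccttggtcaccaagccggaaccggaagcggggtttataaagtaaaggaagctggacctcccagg
Atp6v1f: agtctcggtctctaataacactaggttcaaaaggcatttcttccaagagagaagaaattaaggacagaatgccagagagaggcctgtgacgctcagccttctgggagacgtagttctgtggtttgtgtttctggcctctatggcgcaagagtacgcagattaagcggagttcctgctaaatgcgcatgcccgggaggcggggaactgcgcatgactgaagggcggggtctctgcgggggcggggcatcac
The letters CACGTG, which read the same on both strands, stood in 1 of these 4 windows, that of Atp6v1a, where they began 131 bases before the gene start within TCACGTGA. Among 32851 promoter windows of that length, 6.02% held CACGTG and 0.785% held TCACGTGA, which contains it. These matches describe the letters of the windows alone.

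One array stands apart and touches every WSB/EiJ value. On probe sets private to a strain, with 0 the mean of the other strains and 1 that of WSB/EiJ, a value of 0.00202 was found for the array that bears the label WSB/EiJ PF-04287881 animal 3, and 1.02 on the matching NZW/LacJ scale. The remaining WSB/EiJ arrays lay between 0.980 and 1.00 on their own scale except vehicle animal 4, at 0.700. Results are therefore given with all 31 arrays and without animal 3. No covariate for batch was given in the sources used here.

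Across the 4 strains, 4 of the 8 subunits rose with PF-04287881 and none fell: Atp6v1d and Atp6v1f of the central stalk and Atp6v1e1 and Atp6v1g1 of the peripheral stalks. Their mean log2 differences over the strains, PF-04287881 minus vehicle, lay between 0.23 and 0.35, which corresponds to 1.17-fold to 1.28-fold. The catalytic head subunits Atp6v1a and Atp6v1b2 and the connecting subunits Atp6v1c1 and Atp6v1h had estimates between 0.09 and 0.12 and did not pass. In the same comparison 13.3% of all genes rose and 8.92% fell at an adjusted p under 0.05. The differences of Atp6v1c1, Atp6v1d, Atp6v1e1 and Atp6v1f were above 0 in all 4 strains, 4 of 8 against 13.4% of all genes. Without the array in doubt, Atp6v1b2 and Atp6v1h passed as well, giving 6 of 8 against 18.4% of all genes. The median of the 8 differences was 0.17 with all arrays and 0.23 without that array, and the median over all genes tested was 0.00 with all arrays. In total RNA of whole liver, more cells of one type and more RNA per cell cannot be told apart.

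Atp6v1d, a rotor subunit, had these log2 levels in MA/MyJ: 10.75, 10.61, 10.78 and 10.67 after vehicle, and 10.95, 11.28, 11.14 and 10.85 after PF-04287881. In NZW/LacJ the Atp6v1d vehicle values were 10.55, 10.64, 10.55 and 10.47 and the treated values 11.17, 10.69, 10.85 and 11.13. Every treated animal of both strains lay above every vehicle animal of its strain. In SM/J, Atp6v1d read 10.62, 10.57, 10.53 and 10.65 after vehicle and 11.15, 11.02, 11.10 and 10.81 after treatment, again without overlap. In WSB/EiJ the vehicle values of 10.97, 11.14, 10.97 and 10.76 overlapped the treated ones of 11.07 and 11.49, and animal 3 read 10.66. The mean difference over the strains was 0.32 ± 0.07 (standard error; adjusted p = 0.000748, limma with Benjamini-Hochberg adjustment), and 0.38 ± 0.06 without animal 3. All 3 probe sets of Atp6v1d passed in the average among all probe sets, with differences of 0.24, 0.32 and 0.37.

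Atp6v1f, the other rotor subunit and the one with a single probe set, followed the same order of groups in NZW/LacJ. Its vehicle values there were 10.64, 10.59, 10.52 and 10.66 and its treated values 11.20, 10.75, 11.03 and 10.96. In MA/MyJ, Atp6v1f had vehicle values of 10.68, 10.72, 10.82 and 10.80 and treated values of 11.07, 11.01, 11.12 and 11.05. The groups did not overlap in either strain, and the treated MA/MyJ animals lay close together. The SM/J vehicle values of Atp6v1f, 10.88, 10.81, 10.92 and 10.78, overlapped its treated values of 11.30, 11.06, 11.08 and 10.85 through treated animal 4 alone. In WSB/EiJ both undoubted treated animals, at 11.08 and 11.26, lay above the vehicle values of 11.02, 11.02, 10.88 and 10.95, and animal 3 lay below them at 10.62. Over the strains Atp6v1f differed by 0.23 ± 0.05 (adjusted p = 0.00198), and by 0.28 ± 0.04 without animal 3.

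Atp6v1e1, of the peripheral stalks, had the largest average difference of the 8, 0.35 ± 0.08 (adjusted p = 0.00201), or 0.43 ± 0.06 without animal 3. In NZW/LacJ, Atp6v1e1 read 10.96, 11.05, 11.07 and 11.02 after vehicle and 11.83, 11.28, 11.61 and 11.61 after treatment. In MA/MyJ its values were 11.18, 11.34, 11.26 and 11.44 after vehicle and 11.51, 11.89, 11.82 and 11.58 after treatment. Neither strain showed overlap. SM/J vehicle animals had Atp6v1e1 values of 11.53, 11.45, 11.51 and 11.58, and treated animals 12.15, 11.74, 11.88 and 11.49, so treated animal 4 lay among the vehicle animals. In WSB/EiJ, vehicle values of 11.64, 11.69, 11.67 and 11.60 stood below the undoubted treated values of 12.12 and 12.15, and animal 3 read 11.15, below every vehicle animal. Of the other probe sets of Atp6v1e1, 1420038_at and 1449711_at also passed in the average, with 0.14 and 0.20, and the dim 1457049_at did not, with 0.07.

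Atp6v1g1, the partner of E in the peripheral stalks, had the largest difference in a single strain. In NZW/LacJ it read 11.77, 11.70, 11.69 and 11.76 after vehicle and 12.66, 12.15, 12.38 and 12.38 after treatment. That is a log2 difference of 0.66 ± 0.13, or 1.58-fold (95% interval of the log2 difference 0.40 to 0.92, adjusted p = 0.000447). In SM/J, Atp6v1g1 read 12.15, 12.04, 12.12 and 11.88 after vehicle and 12.73, 12.44, 12.49 and 12.16 after treatment, and the groups did not overlap. The MA/MyJ groups were apart by a narrow margin, with vehicle values of 12.39, 12.17, 12.32 and 12.36 and treated values of 12.42, 12.48, 12.60 and 12.54. In WSB/EiJ, vehicle values of 12.40, 12.49, 12.43 and 12.38 lay between the treated values of 12.23 and 12.61, with animal 3 at 11.77. Over the strains the difference was 0.26 ± 0.06 (adjusted p = 0.00395).

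Atp6v1a, the catalytic subunit, had positive differences in MA/MyJ and NZW/LacJ and negative ones in SM/J and WSB/EiJ. In MA/MyJ its values were 10.65, 10.73, 10.73 and 10.89 after vehicle and 11.08, 11.02, 11.16 and 11.05 after treatment, and in NZW/LacJ 10.68, 10.58, 10.58 and 10.72 after vehicle and 11.22, 10.92, 10.88 and 11.07 after treatment. Both strains had every treated animal above every vehicle animal. In SM/J the treated values of Atp6v1a, 11.10, 10.62, 10.89 and 10.51, spread on both sides of the vehicle values of 10.83, 10.87, 10.87 and 10.77. In WSB/EiJ, Atp6v1a read 10.62, 10.63, 9.97 and 10.89 after vehicle and 9.72 and 10.28 in the undoubted treated animals, with animal 3 at 10.69. The WSB/EiJ groups overlapped through vehicle animal 3, the lowest of its group. Over the strains the difference was 0.09 ± 0.08 (adjusted p = 0.495; 95% interval -0.08 to 0.26).

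Atp6v1b2, the nucleotide-binding partner of A in the head, did not pass in any single strain. In MA/MyJ it read 9.99, 9.90, 9.82 and 9.95 after vehicle and 10.16, 10.25, 10.35 and 10.17 after treatment, with no overlap. In NZW/LacJ, treated animals 1 and 4, at 10.02 and 9.92, lay above the vehicle values of 9.49, 9.58, 9.46 and 9.49, while treated animals 2 and 3, at 9.52 and 9.53, lay among them. The WSB/EiJ values of Atp6v1b2 were 10.23, 10.55, 10.48 and 10.12 after vehicle and 10.42, 10.44 and, in animal 3, 9.52 after treatment. That single array moved the mean difference over the strains from 0.19 ± 0.06 (adjusted p = 0.0130, without it) to 0.12 ± 0.08 (adjusted p = 0.304, with it). The SM/J groups of Atp6v1b2 overlapped, with vehicle values from 9.73 to 9.96 and treated values from 9.82 to 10.28.

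The connecting subunits did not pass in the average with all arrays. Atp6v1c1, which joins the stalks to the membrane sector, had overlapping groups in all 4 strains, and its strain differences ran from 0.01 in WSB/EiJ to 0.17 in NZW/LacJ with an average of 0.10 ± 0.06 (adjusted p = 0.272; 95% interval -0.03 to 0.22). Its other probe sets gave averages of 0.10 and 0.18, neither past the threshold with all arrays. Atp6v1h, which regulates the coupling of the sectors, averaged 0.11 ± 0.06 (adjusted p = 0.179) with all arrays and 0.17 ± 0.05 (adjusted p = 0.00651) without animal 3. In WSB/EiJ it read 10.74, 10.79, 10.75 and 10.59 after vehicle, 11.01 and 11.06 in the undoubted treated animals and 10.35 in animal 3. Its MA/MyJ groups overlapped, vehicle from 10.48 to 10.74 and treated from 10.69 to 10.98, and its SM/J difference was -0.07 ± 0.12.

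**Figure D1:**
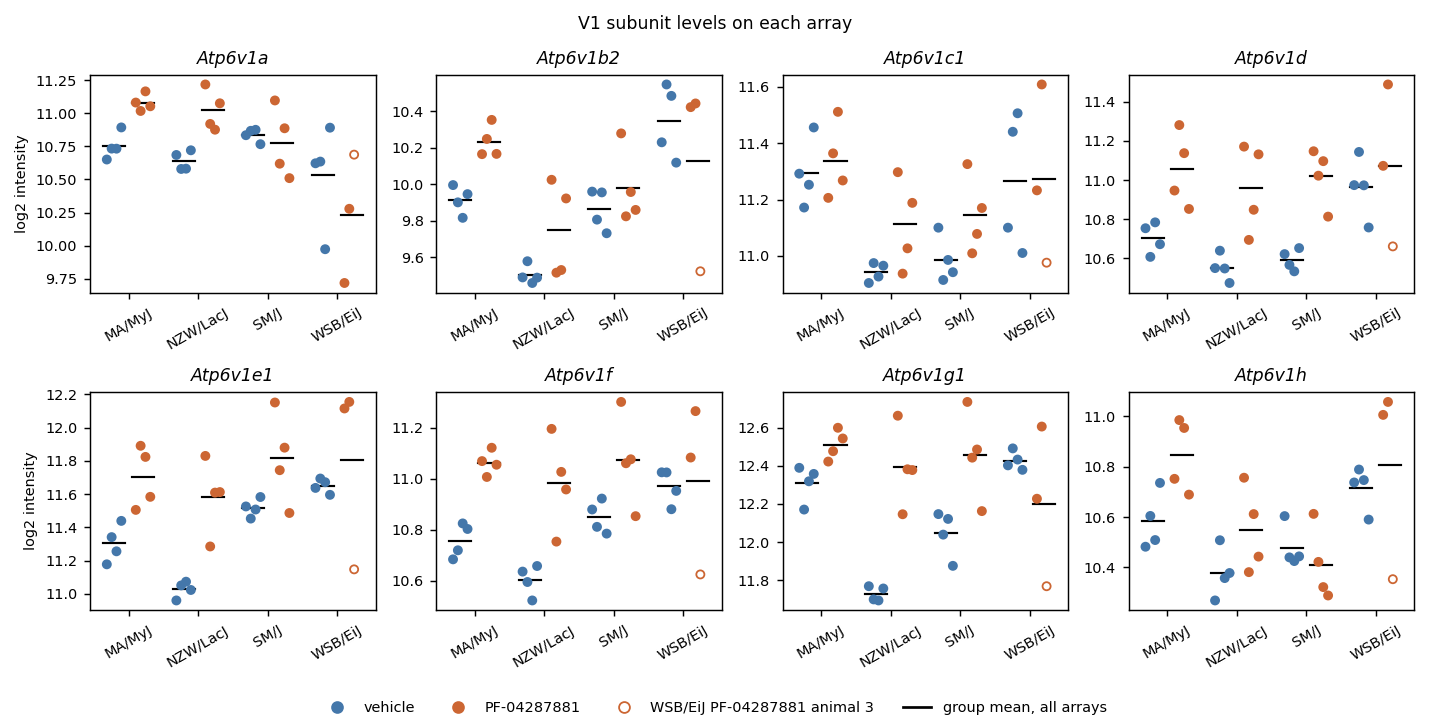
Level of each V1 subunit (log2 intensity, y axis) on every array, by strain and treatment (x axis), with a line at each group mean and the array that bears the label WSB/EiJ PF-04287881 animal 3 as an open circle. Treated NZW/LacJ animals lie above all vehicle animals for 5 subunits and treated MA/MyJ animals for 6, while the open circle lies below every WSB/EiJ vehicle animal for all subunits but Atp6v1a.

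By strain, NZW/LacJ gave the calls with all arrays. There 4 of the 8 rose against 15.1% of all genes: Atp6v1d by 0.41 ± 0.13, Atp6v1e1 by 0.56 ± 0.16, Atp6v1f by 0.38 ± 0.10 and Atp6v1g1 by 0.66 ± 0.13. The call of Atp6v1d was lost on leaving out vehicle animal 4 (adjusted p = 0.0619), treated animal 1 (0.0950) or treated animal 4 (0.0837), and that of Atp6v1e1 on leaving out treated animal 1 (0.0515). MA/MyJ had no call among the 8 (0 of 8 against 4.14% of all genes, 3.17% being higher), although 6 of them had every treated animal above every vehicle animal, against 10.7% of all genes. Unadjusted p-values under 0.05 in MA/MyJ were reached by 5 of the 8. The share without overlap upward in NZW/LacJ was 5 of 8 against 22.0%, in SM/J 2 of 8 against 6.48%, and in WSB/EiJ 0 of 8 against 6.31%. SM/J and WSB/EiJ each had 0 of 8 calls with all arrays, against 2.59% and 19.3% of all genes, and unadjusted p-values under 0.05 were reached by 3 and 0 of the 8. The share of all genes with an unadjusted p under 0.05 was not counted. The unadjusted counts in MA/MyJ, SM/J and WSB/EiJ therefore have no baseline.

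Without animal 3 of treated WSB/EiJ the standard errors in the other strains were smaller (0.14 in place of 0.16 for Atp6v1a), and calls appeared in every strain. MA/MyJ then had 3 of 8 higher (Atp6v1d 0.35, Atp6v1e1 0.40 and Atp6v1f 0.31, against 5.21% of all genes), SM/J 2 (Atp6v1d 0.43 and Atp6v1g1 0.41, against 2.66%) and NZW/LacJ 5, Atp6v1a having joined with 0.38 ± 0.14 (adjusted p = 0.0490, against 18.3%). In WSB/EiJ, Atp6v1e1 rose by 0.49 ± 0.13 (adjusted p = 0.00676) and Atp6v1h by 0.32 ± 0.11 (adjusted p = 0.0265), against 13.8% of all genes. Atp6v1a fell by 0.53 on the log2 scale, with a standard error of 0.17 (adjusted p = 0.0205), against 18.6% of all genes called lower. These WSB/EiJ values rest on 2 treated animals. Beyond animal 3, the SM/J calls of Atp6v1d and Atp6v1g1 also appeared on leaving out WSB/EiJ treated animal 2 or SM/J treated animal 4. The decrease of Atp6v1a in WSB/EiJ also passed on leaving out vehicle animal 3, the lowest vehicle animal, with -0.49. Atp6v1g1 was called lower in WSB/EiJ, with -0.43, on leaving out treated animal 2. That fit keeps treated animal 1 and the array in doubt as the only treated WSB/EiJ arrays.

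**Figure D2:**
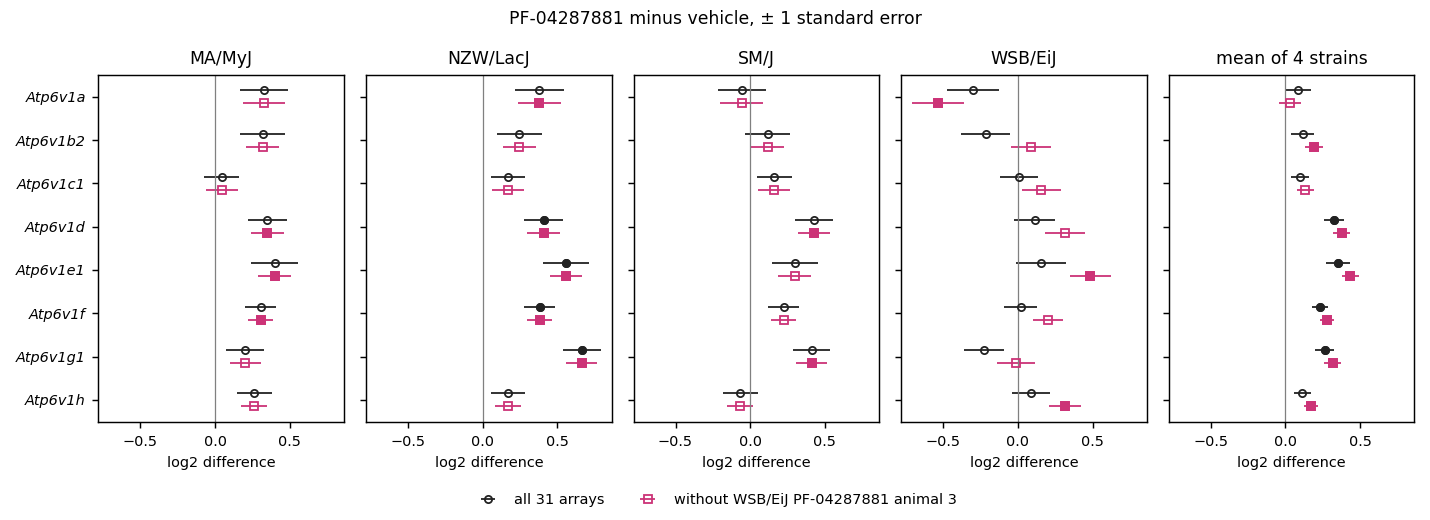
Log2 difference, PF-04287881 minus vehicle, of each V1 subunit (x axis) in each strain and in the mean of the 4 strains, with bars of 1 standard error, circles for all 31 arrays and squares without WSB/EiJ PF-04287881 animal 3. Filled symbols mark an adjusted p under 0.05: with all arrays these are 4 subunits in NZW/LacJ and 4 in the mean, and without the array Atp6v1a is filled on the negative side in WSB/EiJ, at -0.53.

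Whether the strains differed in response was tested directly. With all arrays, Atp6v1g1 alone of the 8 passed the F test of strain by treatment (adjusted p = 0.00638, against 19.4% of all genes), and without animal 3 Atp6v1a (adjusted p = 0.00808) joined Atp6v1g1 (0.00999), against 32.4%. The response of Atp6v1g1 in NZW/LacJ exceeded that in WSB/EiJ by 0.89 ± 0.19 (adjusted p = 0.000918, against 16.6% of all genes called higher), and by 0.67 ± 0.16 without animal 3 (adjusted p = 0.00241, against 21.6%). The SM/J response exceeded the WSB/EiJ response by 0.64 ± 0.19 (adjusted p = 0.0465, against 3.49%), a call lost without that array (0.42 ± 0.16, adjusted p = 0.0765). For Atp6v1a the NZW/LacJ response exceeded the WSB/EiJ response by 0.68 ± 0.24 (adjusted p = 0.0365), and by 0.91 ± 0.22 without the array. Atp6v1d, Atp6v1e1 and Atp6v1c1 had F test adjusted p-values between 0.519 and 0.933 across both sets of arrays.

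Set against the coding of the series, Atp6v1a responded more in the strains coded for Kupffer cell vacuolation, MA/MyJ and NZW/LacJ, than in SM/J and WSB/EiJ. The difference of mean responses was 0.53 ± 0.16 (adjusted p = 0.0254, 1 of 8 against 12.5% of all genes) and 0.65 ± 0.15 without animal 3 (adjusted p = 0.00242, against 18.0%). Its 95% interval for the mean response over all strains covered 0 in both sets of arrays. Atp6v1g1 responded more in NZW/LacJ, coded for necrosis, than in the mean of the other strains, by 0.53 ± 0.15 (adjusted p = 0.0133, 1 of 8 against 11.3%) and by 0.46 ± 0.12 without animal 3. Without animal 3, Atp6v1a also passed that contrast with 0.47 ± 0.17 (adjusted p = 0.0468, against 15.6%). NZW/LacJ is the only strain coded for necrosis, and vacuolation is coded by strain as well. Strain and finding therefore cannot be told apart in either contrast. The p-values refer to variation between animals of a strain and not between strains. A single call among 8 genes is a share of 12.5%, equal to the share of all genes in the vacuolation contrast and close to that in the necrosis contrast with all arrays.

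The strain pattern of Atp6v1g1 depended on the probe set. On 1423256_a_at, used above, NZW/LacJ responded with 0.66, SM/J with 0.41, MA/MyJ with 0.20 and, without animal 3, WSB/EiJ with -0.01. On 1423255_at, the other bright one, the values in the same order were 0.20, 0.25, 0.09 and 0.53, the last being the only one of the 4 that passed (adjusted p = 0.000670, over all 34728 probe sets with 1 symbol). The F test of strain by treatment on 1423255_at gave an adjusted p of 0.857 with all arrays and 0.119 without animal 3. Both probe sets passed in the average, with 0.26 and 0.21. In the average, then, the direction was shared, and the strain with the larger value was not.

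For Atp6v1a the probe sets differed the other way round. On 1422508_at, the less bright, the average was 0.28 ± 0.07 (adjusted p = 0.00761), against 0.09 on the one used above. Its group means rose from 10.20 ± 0.09 to 10.91 ± 0.17 in NZW/LacJ (SD, n = 4 each), a difference of 0.71 (adjusted p = 0.000862). The difference was 0.48 for MA/MyJ, 0.13 for SM/J and -0.22 for WSB/EiJ, and the vacuolation contrast was 0.64 ± 0.14 (adjusted p = 0.00411). Both probe sets therefore placed MA/MyJ and NZW/LacJ above WSB/EiJ in response, and they disagreed on the call of the average. For Atp6v1b2, 3 further probe sets gave averages between -0.08 and 0.03, none passing, and the 2 further probe sets of Atp6v1h were dim, with means of 3.48 and 3.20.

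Vehicle levels, read as probe-set intensities, differed between strains for most of the 8 subunits, as they did for most genes. Whether the probes bind the RNA of all 4 strains equally was not tested. In vehicle animals 6 of the 8 subunits passed the F test across strains (all but Atp6v1a and Atp6v1h), against 56.5% of all genes, and 7 passed without animal 3, when Atp6v1h joined, against 63.0%. On the probe sets used, NZW/LacJ was the lowest strain for 7 of the 8 and WSB/EiJ the highest for 6. How many of all genes had such an order was not counted. The WSB/EiJ means include vehicle animal 4, which lay at 0.700 on the WSB/EiJ strain scale. Atp6v1b2 had the widest range, from 9.50 ± 0.05 in NZW/LacJ through 9.86 ± 0.11 in SM/J and 9.91 ± 0.08 in MA/MyJ to 10.34 ± 0.20 in WSB/EiJ (SD, n = 4 each). Its highest strain stood 0.84 ± 0.15 above its lowest, or 1.79-fold (adjusted p = 0.000103), where 21.5% of all genes were called lower in NZW/LacJ than in WSB/EiJ. Here and below, the strains compared were picked by these same vehicle means. Such p-values describe the pair and are no test of their own. The step from MA/MyJ to WSB/EiJ, 0.43, was the only one between neighbouring strains that passed for any of the 8 with all 31 arrays (adjusted p = 0.0325, against 13.3% of all genes called lower in MA/MyJ). That step missed the threshold on leaving out MA/MyJ vehicle animal 2, 3 or 4 or WSB/EiJ vehicle animal 2 or 3. Without the array in doubt, SM/J also stood above NZW/LacJ for Atp6v1b2 by 0.36 (adjusted p = 0.0166) and for Atp6v1g1 by 0.32 (adjusted p = 0.0245), against 14.9% of all genes, and WSB/EiJ above SM/J for Atp6v1c1 by 0.28 (adjusted p = 0.0396), against 20.6%.

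Atp6v1g1 ran from 11.73 ± 0.04 in NZW/LacJ through 12.05 ± 0.12 in SM/J and 12.31 ± 0.10 in MA/MyJ to 12.43 ± 0.05 in WSB/EiJ, a range of 0.70 or 1.62-fold (adjusted p = 0.000120). Its NZW/LacJ animals after treatment, at 12.15 to 12.66, reached the span of vehicle MA/MyJ and WSB/EiJ animals, at 12.17 to 12.49. The range of Atp6v1e1 was 0.62, from 11.03 ± 0.05 in NZW/LacJ to 11.65 ± 0.04 in WSB/EiJ, with MA/MyJ at 11.30 ± 0.11 and SM/J at 11.52 ± 0.05 between them. Atp6v1d spanned 0.41, Atp6v1f 0.37, Atp6v1c1 0.35 and Atp6v1h 0.34, each with an adjusted p under 0.05 between its lowest and highest strain. That pair was picked by the vehicle means, and Atp6v1h did not pass the F test across strains with all arrays. Atp6v1c1 was highest in MA/MyJ, at 11.29 ± 0.12, beside WSB/EiJ at 11.26 ± 0.25, and 14.6% of all genes were called higher in MA/MyJ than in NZW/LacJ. Atp6v1a had another order, lowest in WSB/EiJ and highest in SM/J, with a range of 0.31 that did not pass (adjusted p = 0.149).

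The other probe sets bear on these orders. On 1423255_at, vehicle Atp6v1g1 was again lowest in NZW/LacJ, at 11.32 ± 0.03, but highest in MA/MyJ, at 11.82 ± 0.04, with WSB/EiJ at 11.66 ± 0.10. On 1419883_s_at, vehicle Atp6v1b2 was again lowest in NZW/LacJ, at 8.74 ± 0.19, and highest in WSB/EiJ, at 9.46 ± 0.12. On 1419544_at, vehicle Atp6v1c1 was lowest in NZW/LacJ, at 10.59 ± 0.06, and highest in MA/MyJ, at 10.98 ± 0.05. Other probe sets had another lowest strain. SM/J was lowest on 1419546_at of Atp6v1c1, at 9.84 ± 0.09 beside 9.86 ± 0.06 in NZW/LacJ, and on 1438993_a_at of Atp6v1d, at 9.57 ± 0.04 beside 9.60 ± 0.09. On 1420038_at of Atp6v1e1, NZW/LacJ was the highest strain, at 8.50 ± 0.10, and on 1449649_at of Atp6v1b2, MA/MyJ was the lowest, at 6.60 ± 0.15.

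The levels in the array that bears the label WSB/EiJ PF-04287881 animal 3 stood close to the NZW/LacJ vehicle means. Its Atp6v1b2 read 9.52 beside an NZW/LacJ vehicle mean of 9.50 and a WSB/EiJ vehicle mean of 10.34. Atp6v1g1 read 11.77 beside 11.73 and 12.43, Atp6v1f 10.62 beside 10.60 and 10.97, and Atp6v1h 10.35 beside 10.38 and 10.72. The array was lower than the WSB/EiJ vehicle mean by 0.29 to 0.82 for all subunits but Atp6v1a, which was 0.16 higher.

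**Figure D3:**
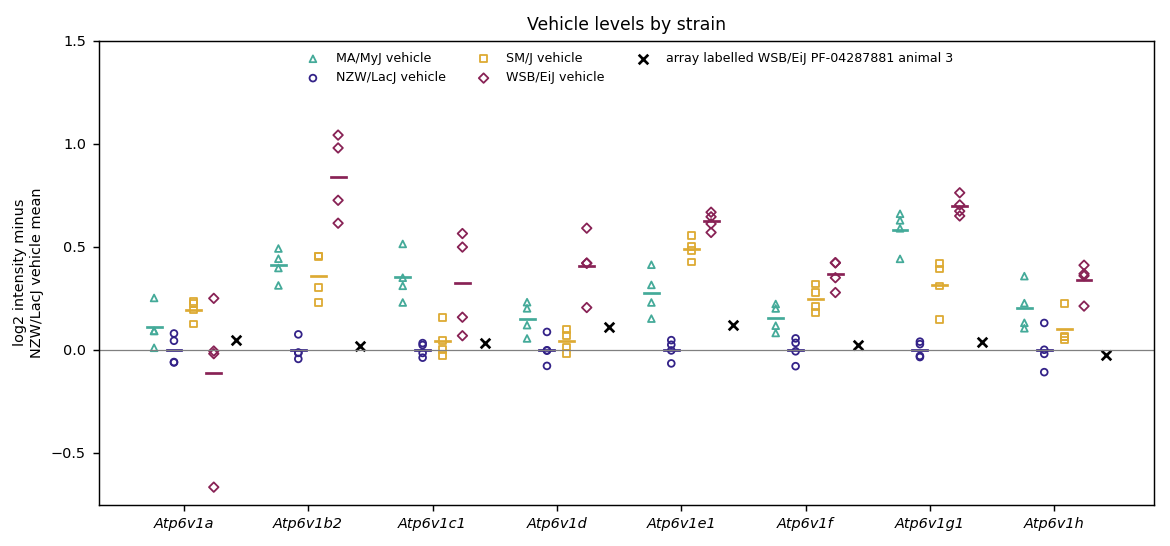
Level of each V1 subunit in every vehicle animal, as the log2 difference from the NZW/LacJ vehicle mean (y axis), by strain, with a line at each strain mean and a cross for the array that bears the label WSB/EiJ PF-04287881 animal 3. NZW/LacJ means are lowest for all subunits but Atp6v1a, WSB/EiJ stands 0.84 above for Atp6v1b2, and the crosses lie near 0.

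Animal by animal, the mean over the 8 subunits of the log2 level minus the vehicle mean of the strain was above 0 in 13 of 15 treated animals. Treated MA/MyJ animals had 0.19, 0.33, 0.38 and 0.20, and treated NZW/LacJ animals 0.60, 0.16, 0.32 and 0.42. The SM/J animals spread from -0.00 to 0.43, with 0.12 and 0.20 between. In WSB/EiJ the values were 0.00 and 0.25, and -0.39 in animal 3. Vehicle animals of all strains lay between -0.07 and 0.11. Over the 30 arrays without animal 3, the deviation of Atp6v1f followed the mean of the other 7 most closely, with Pearson's r of 0.93, and Atp6v1a least, with 0.42. These correlations describe arrays that share a strain, a dosing group and a normalisation.

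The membrane sector and its accessory proteins moved in the same direction. Of the 9 that passed the filter, 8 rose in the average with all arrays (13.3% of all genes) and 9 without animal 3 (18.4%), with medians of 0.27 and 0.29. Atp6v0b, of the proton-carrying ring, had 0.45 ± 0.10, Atp6v0d2, an isoform of the subunit at the base of the rotor known from osteoclasts and macrophages, 0.35 ± 0.10, and Atp6ap1, an accessory protein, 0.31 ± 0.06. Tcirg1, the a3 isoform of the large membrane subunit, had 0.29 ± 0.06, Atp6v0a1 0.27 ± 0.06, Atp6ap2 0.24 ± 0.06, Atp6v0e 0.24 ± 0.08 and Atp6v0d1 0.23 ± 0.04. Atp6v0a2, another isoform of the large membrane subunit, had 0.12 ± 0.05 and did not pass with all arrays (adjusted p = 0.0977). In NZW/LacJ 7 of the 9 rose, against 15.1% of all genes, and in the other strains 0 with all arrays. In WSB/EiJ without animal 3, 7 of 9 rose, against 13.8% of all genes, while 2 of the 8 V1 subunits did. Among them Atp6v0b was 0.76 ± 0.18, Atp6ap2 0.51 ± 0.13 and Tcirg1 0.42 ± 0.15. None of the 9 passed the F test of strain by treatment with all arrays.

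**Figure D4:**
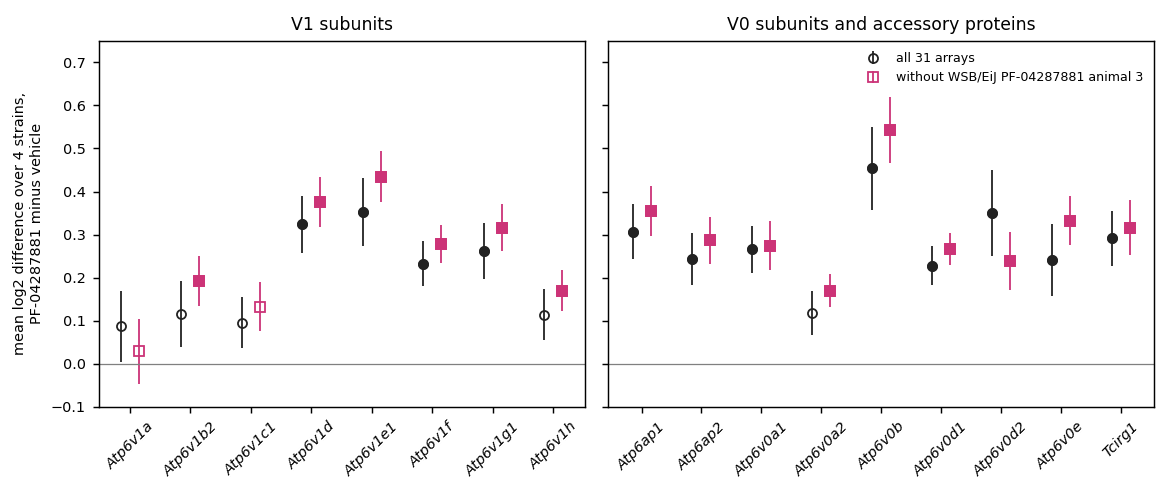
Mean log2 difference over the 4 strains, PF-04287881 minus vehicle (y axis), of the 8 V1 subunits and of 9 V0 subunits and accessory proteins, with bars of 1 standard error, circles for all 31 arrays and squares without WSB/EiJ PF-04287881 animal 3. Filled symbols mark an adjusted p under 0.05, which 8 of 9 V0 and accessory genes and 4 of 8 V1 subunits reach with all arrays.

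Other isoforms of V1 were at or below the filter. Atp6v1e2, known from testis, was the 1 tested, with an average of -0.01 ± 0.05, and Atp6v1b1, Atp6v1c2 and Atp6v1g2 were dim. Of 7 assembly factors, 2 rose in the average, against 13.3% of all genes: Dmxl2 by 0.58 ± 0.11 and Wdr7 by 0.32 ± 0.05, both of the complex that rejoins V1 to V0. Rogdi, of the same complex, rose in MA/MyJ by 0.46 ± 0.12 (adjusted p = 0.0252, against 3.17% of all genes called higher) and fell by 0.41 in WSB/EiJ (adjusted p = 0.0269, against 12.4% called lower). Vma21, a chaperone of V0 assembly, fell by 0.55 in WSB/EiJ (adjusted p = 0.0467), and its WSB/EiJ difference without animal 3 was -0.96 ± 0.14. Of 4 tested proteins with a TLDc domain, a domain that binds V1, 2 rose in the average, against 13.3% of all genes: Tbc1d24 by 0.34 ± 0.08 and Meak7 by 0.16 ± 0.05. Meak7 differed between strains, with 0.52 in NZW/LacJ and -0.21 in SM/J (F test adjusted p = 0.00257, against 19.4%). Oxr1 passed the average only without animal 3 (0.15 ± 0.04, against 18.4%). In WSB/EiJ with all arrays it rose by 0.38 (adjusted p = 0.00471), where 19.3% of all genes were called in either direction.

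Among 12 tested genes of Ragulator, the Rag GTPases and their regulators, 6 rose and 1 fell, where 13.3% of all genes rose and 8.92% fell. Rragd, a Rag GTPase, rose by 1.10 ± 0.19, and Fnip2 and Fnip1, partners of folliculin, by 0.69 ± 0.11 and 0.54 ± 0.10. Rragc rose by 0.35 ± 0.06, and Rraga fell by 0.21 on the log2 scale, with a standard error of 0.06. None of the transcripts of Mitf, Tfe3, Tfeb and Tfec passed in the average, the largest being 0.25 ± 0.14 for Tfec, and the arrays do not measure where these proteins are or how active they are. Unadjusted p-values under 0.05 in the average were reached by 0 of these 4. With all arrays none of the 4 passed in a single strain. Without animal 3, Mitf fell by 0.56 in WSB/EiJ (adjusted p = 0.0101, against 18.6% of all genes). Tfeb rose there by 0.25 (adjusted p = 0.0243, against 13.8%). Mitf then also passed the vacuolation contrast, with 0.48 (adjusted p = 0.0142, against 18.0%). These WSB/EiJ values rest on 2 treated animals. As a comparison within energy metabolism, 0 of 5 F1 subunits of the mitochondrial ATP synthase passed in the average, with differences from -0.04 to 0.07, and 1 had an unadjusted p under 0.05. In NZW/LacJ, Atp5a1 fell by 0.16 (adjusted p = 0.0252), where 2766 of 12890 genes were called in either direction. No other F1 subunit was called in a single strain with all arrays. Of 26 tested lysosomal proteins 22 rose, against 13.3% of all genes, and none fell, Ctss by 1.09 ± 0.16, Hexa by 0.85 ± 0.08, Arsa by 0.80 ± 0.09 and Ctsa by 0.56 ± 0.05.

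The tested genes whose deviations tracked the mean of the 8 subunits most closely were Krt18, with Pearson's r of 0.94 over the 30 arrays without animal 3, Vps35, Rragd, Cap1 and Renbp, each with 0.93, Anxa2 with 0.92, and Sptan1 and Comtd1 with 0.91. Genes with predicted or clone names were left out of this ranking. Over all 31 arrays the same 8 genes had r from 0.85 to 0.93.

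Macrophage markers rose in the same livers. Of 12 Kupffer cell markers 9 rose in the average, against 13.3% of all genes (median 0.81), among them Cd5l by 1.12 ± 0.16 and Timd4 by 1.09 ± 0.18, and of 10 tested markers of monocytes and lipid-laden macrophages 8 rose (median 1.09), Cd68 by 1.99 ± 0.21, Gpnmb by 1.96 ± 0.26 and Lgals3 by 1.91 ± 0.20. Trem2 and Ccr2 of the latter list did not pass, with 0.04 and -0.09. The log2 of the summed level of that list in MA/MyJ spanned 11.7 to 11.8 after vehicle and 13.0 to 13.9 after treatment. The NZW/LacJ spans were 11.7 to 12.0 and 12.6 to 13.7, those of SM/J 11.6 to 12.1 and 12.2 to 12.6, and those of WSB/EiJ 11.4 to 12.2 and 11.9 to 12.7. Summed hepatocyte markers lay between 17.8 and 17.9 in all groups, and 1 of 11 passed in the average (median -0.03). Such a sum follows its brightest members, such as Alb at 14.7 to 14.8, where the highest value on any array was 14.9. It can hardly show changes in dimmer ones. In NZW/LacJ, Ahsg rose by 0.19 (adjusted p = 0.0173, against 15.1% of all genes). Hnf4a fell there by 0.29 (adjusted p = 0.0496), where 2766 of 12890 genes were called in either direction. Of 10 markers of sinusoidal endothelium 8 fell, against 8.92% of all genes (median -0.44). Stab2 and Lyve1 of that list did not pass in the average with all arrays, with 0.20 and 0.26. Stab2 rose in MA/MyJ by 0.60 (adjusted p = 0.0320, against 3.17% of all genes) and in NZW/LacJ by 0.57 (adjusted p = 0.0112, against 15.1%). Lyve1 rose in WSB/EiJ by 1.68 (adjusted p = 0.0214), where 19.3% of all genes were called in either direction. For the summed Kupffer cell list, vehicle and treated spans were 13.9 to 14.2 and 13.7 to 15.1 (NZW/LacJ), 13.4 to 13.7 and 13.9 to 14.6 (MA/MyJ), 13.5 to 13.9 and 13.6 to 14.3 (SM/J), and 13.1 to 13.4 and 13.5 to 14.1 (WSB/EiJ). Vehicle and treated spans overlapped in WSB/EiJ for the monocyte and lipid-laden list, and in NZW/LacJ and SM/J for the Kupffer cell list. The part of the macrophage transcripts in the V1 result was not tested.

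The V1 mean and the macrophage list mean are set side by side here for some treated animals of each strain. How they relate was not tested. NZW/LacJ treated animal 1 had the highest V1 mean, 0.60, with a macrophage list mean of 1.90 above vehicle, and MA/MyJ treated animal 3 had 0.38 with 2.39. SM/J treated animal 1 had 0.43 with 0.64. WSB/EiJ treated animal 1 had 0.00 with 0.62, and animal 2 had 0.25 with 1.10. Animal 3, the array in doubt, had -0.39 with 0.20.

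**Figure D5:**
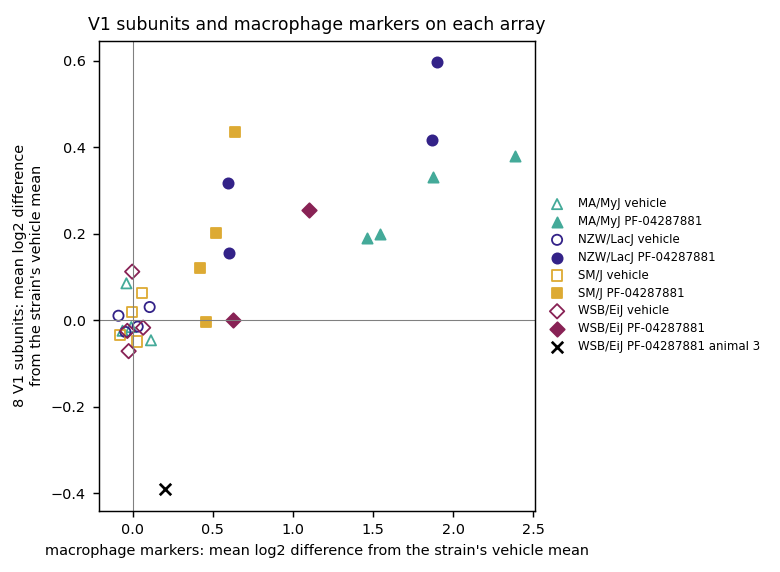
Mean log2 deviation from the vehicle mean of the strain for the 8 V1 subunits (y axis) and for the monocyte and lipid-associated macrophage markers (x axis), 1 point per array, by strain, open for vehicle and filled for PF-04287881, with a cross for WSB/EiJ PF-04287881 animal 3. Vehicle arrays cluster at 0, NZW/LacJ treated animal 1 is highest for V1 at 0.60, and MA/MyJ treated animal 3 is farthest right at 2.39.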

How the data were processed

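Messenger RNA was measured on 31 one-colour Affymetrix arrays of mouse liver. The deposited values are log2 intensities per probe set, which the authors made with Affymetrix Power Tools and RMA, per the submitters' processing notes. RMA corrects background, normalises arrays by quantiles and summarises probes. Tool versions, scan dates and detection calls are not given in the sources used here. Quantile normalisation makes arrays alike in distribution, so a shift of most genes would not be seen. Precision is limited by how many arrays there are.

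Of 44721 probe sets, 34728 carried 1 gene symbol, 872 several and 9121 none, from the platform annotation. Symbols were updated by Entrez number from a RefSeq listing (GRCm38.p6) that covered 34525 of them. The brightest probe set on average stood for a gene, a choice for 7531 tested genes. Genes brighter than 6.49, which is the median over every probe set and array, in at least 3 arrays were tested, and 5257 dim genes were not. A model with 1 mean per group was fitted with limma 3.58.1 in R 4.3.3 (data.table version 1.17.8) and moderated by eBayes (23 residual and 3.17 prior degrees of freedom), two-sided, with Benjamini-Hochberg adjustment over the 12890 genes and a threshold of 0.05. The mean of the 4 strain differences, each strain difference, their F test and contrasts, and vehicle levels were tested. Probe sets were also fitted singly, without a filter, over all 34728. The script was tested on simulated data. Errors with ± are standard errors of log2 differences, or SD where stated, and p-values refer to the variation between animals of a strain.

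The 8 subunits and all gene lists were chosen with earlier results of these data known. All 8 are named throughout, and from other lists all members of the V-ATPase lists or at most the 4 largest changes past the threshold were named, or the 2 largest values where none passed. Trem2, Ccr2, Rraga, Stab2, Lyve1, Hnf4a and Atp5a1 were named after their values were seen. The single-strain values of Mitf, Tfeb, Meak7, Oxr1 and Ahsg were also added after they were seen. The genes most like the subunits are the 8 with the highest Pearson's r to their mean deviation. Strain labels were checked on probe sets private to a strain. Animal numbers were checked as pairs: same-numbered animals of a strain had correlations of deviations between -0.52 and 0.41, so they share a number and were not treated as pairs. Alternatives were other filters, probe sets, normalisations, variance models, array weights, and leaving out arrays. Promoter letters were read from the RefSeq table of GRCm38.p6.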

Additional observations from a re-analysis of the deposited data

Results flagged for a closer look

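In vehicle-treated SM/J, animal 1 read 10.60 for Atp6v1h while the other animals lay between 10.43 and 10.44, far enough from them to pass Dixon's test at the 95% level. It was 1 of 56 groups checked, and chance flags about 1 in 20.

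Responses differed between strains, by a test of the difference itself, in 6 comparisons of the 8 subunits with all arrays. Shares of all genes called higher are in brackets. For Atp6v1a these were the vacuolation-coded strains minus the others, 0.53 (12.5%), and NZW/LacJ minus WSB/EiJ, 0.68 (16.6%). For Atp6v1g1 they were NZW/LacJ minus the mean of the other strains, 0.53 (11.3%), NZW/LacJ minus WSB/EiJ, 0.89 (16.6%), and SM/J minus WSB/EiJ, 0.64 (3.49%). The last of these calls was lost without WSB/EiJ PF-04287881 animal 3. Atp6v1g1 also passed the F test of strain by treatment (adjusted p = 0.00638), as 19.4% of all genes did. All Atp6v1g1 differences come from 1423256_a_at, and on 1423255_at the F test gave an adjusted p of 0.857.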

How the results depend on the processing

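The median of the 8 subunits kept its direction in the average and in every strain but WSB/EiJ under every alternative run. Leaving out 1 array at a time, the number of the 8 past the threshold was 4 to 6 in the average, 2 to 5 in NZW/LacJ (2 without treated animal 1), 0 to 3 in MA/MyJ, 0 to 2 in SM/J, 0 to 3 in WSB/EiJ, 1 to 2 in the F test and 4 to 7 in the vehicle F test. The WSB/EiJ median of 0.01 ran from -0.14 (without treated animal 2) to 0.18 (without animal 3). Array weights gave 7 of 8 in the average, 7 in MA/MyJ, 4 in SM/J, 3 in WSB/EiJ and 3 in the F test, and a WSB/EiJ median of 0.24. Leaving out WSB/EiJ treated animal 3 and vehicle animal 4 together gave 3 in MA/MyJ, 2 in SM/J, 1 in WSB/EiJ and 2 in the F test. Fits of the strain's own arrays alone gave 4 in MA/MyJ and 1 in SM/J, and the mean over probe sets gave 1 in SM/J. The causes were not tested. With the animal number as a replicate block, the counts were 4 in the average and in NZW/LacJ, 0 in the other strains, 1 in the F test and 6 in the vehicle F test, and the average median was 0.17; no call of a subunit changed.

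Reversals all concerned values that had not passed. With the mean over probe sets these were Atp6v1b2 in NZW/LacJ (-0.0036), Atp6v1a in SM/J (0.037), Atp6v1g1 in WSB/EiJ (0.058), and the vehicle differences of Atp6v1b2, MA/MyJ minus SM/J (-0.12), and Atp6v1g1, WSB/EiJ minus MA/MyJ (-0.083). Array weights turned Atp6v1b2 (0.085) and Atp6v1g1 (0.066) in WSB/EiJ. Without both WSB/EiJ arrays, Atp6v1b2 there was 0.012 and vehicle Atp6v1c1, MA/MyJ minus WSB/EiJ, was -0.056. Repeated quantile normalisation gave -0.016 for the latter and -0.0034 for SM/J minus NZW/LacJ, and took the call of Atp6v1d in NZW/LacJ (0.33, adjusted p = 0.0654). Leaving out single arrays, values ran in WSB/EiJ from -0.37 to 0.088 for Atp6v1b2, -0.16 to 0.16 for Atp6v1c1, -0.10 to 0.32 for Atp6v1d, -0.018 to 0.49 for Atp6v1e1, -0.12 to 0.20 for Atp6v1f and -0.036 to 0.32 for Atp6v1h. They ran from -0.014 to 0.10 for Atp6v1c1 in MA/MyJ, -0.16 to 0.032 for Atp6v1a in SM/J, and for vehicle levels from -0.074 to 0.23 for Atp6v1a, NZW/LacJ minus WSB/EiJ, and -0.056 to 0.11 for Atp6v1c1, MA/MyJ minus WSB/EiJ.

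Genes past the threshold among all tested numbered 2859 in the average (5280 with array weights, 4306 without both WSB/EiJ arrays). MA/MyJ had 534 (2607 with weights, 1180 without both arrays, 1063 in its own fit), SM/J 334 (2765 and 759), WSB/EiJ 2488 (4209 and 3993, and 4 in its own fit), NZW/LacJ 2766 (4418 with weights) and the F test 2498 (5859 and 4275). Leaving out single arrays moved them to 279 to 941 for MA/MyJ, 103 to 600 for SM/J, 1282 to 4180 for WSB/EiJ and 2115 to 4180 for the F test.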
